A study of Homo sapiens with 6 samples.

Results

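The genes described here are the splicing factor and hnRNP genes: every row of the gene count table whose symbol is an SRSF gene with a number, begins with HNRNP and a letter, with SF3A or SF3B and a number, with SNRP and a letter, or with PRPF and a number, leaving out symbols that end in P and digits as pseudogenes. Of 16362 genes counted, 69 matched, 1 of them a pseudogene symbol, which left 68 members. They were 11 SR protein genes, 23 hnRNP genes, 8 genes of the Sm ring, 4 genes of proteins specific to the U1 or U2 particle, 3 SF3a genes, 6 SF3b genes and 13 PRPF genes. The cells carry the label MDA-MB-231, an established line from a triple-negative breast carcinoma with mesenchymal features. Of 6 libraries, 3 came from cells given CTI-2 for 24 h and 3 from control cells; CTI-2 is a code name, and neither its dose nor any vehicle for the controls was named in the labels. No genetic change or further agent is labelled in either group. RNA was read as cDNA on the Oxford Nanopore platform, where a read is a cDNA molecule, so the counts were not divided by transcript length.

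Introns are removed by the spliceosome, which is built on each intron from small nuclear ribonucleoprotein particles. The U1 particle marks the start of the intron and the U2 particle, with its SF3a and SF3b complexes, marks the branch point near its end, after which the U4/U6.U5 particle joins and the catalytic core forms. Sm proteins form a ring around the small nuclear RNAs. SR proteins mostly favour the use of exons they bind and hnRNP proteins often oppose it, so the balance of both families shapes alternative splicing, which is widely altered in breast cancer. Many of these genes limit their own output through exons that send their transcripts to decay, a level of control that counts per gene do not show.

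Library totals ran from 2208261 to 3153469 counts after CTI-2 and from 2349758 to 3929532 in the controls, and where a library had no count of a gene its level could still reach 0.763 to 1.36 CPM (CPM, counts over the library total on a common scale; a floor of 3 counts that covers counting error only). Separate cultures for the libraries are not stated, so the p-values measure the spread between these libraries, which may be technical. Among the controls, control 2 stood nearest to the CTI-2 libraries: its log2 CPM correlated across genes at r = 0.9746 to 0.9807 with them, against 0.9639 to 0.9718 for controls 1 and 3. By this correlation control 2 was no further from the other controls than they were from each other. Control 2 correlated at 0.9826 with control 1 and 0.9795 with control 3, and controls 1 and 3 correlated at 0.9792. By chi-square of the counts over its degrees of freedom, control 2 was further from control 3 (6.76) than control 1 was (3.92). The value was 3.94 for control 2 with control 1, and 4.59 to 5.71 for control 2 with the CTI-2 libraries. Markers fixed for the labelled line were partly at odds with it. CD44, CAV1 and MSN were present in every library, AXL had 6.02 ± 1.33 CPM after CTI-2 and 3.34 ± 0.313 CPM in controls, and CDH1 and ESR1 had at most 1 and 2 counts. VIM, usually abundant in this line, had only 15.7 ± 1.16 CPM after CTI-2 and 18.7 ± 0.320 CPM in controls (SD, n = 3 each). CDKN2A, which lies in a region commonly described as deleted in MDA-MB-231, had 289 ± 33.2 CPM after CTI-2 and 464 ± 139 CPM in controls, and its neighbour MTAP had 32 to 50 counts in each library. The identity of the cells was not tested further. EPCAM, an epithelial marker, had 7.51 ± 0.594 CPM after CTI-2 and 10.02 ± 0.711 CPM in controls, and the endothelial marker PECAM1 had 5 to 18 counts in each library. The markers PGR and PTPRC had no row under these symbols, so they were not analysed here.

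Most of the splicing genes showed little difference after 24 h of CTI-2. Of the 68 members 66 had enough counts to be tested, and 5 were called, that is, had a Benjamini-Hochberg adjusted p under 0.05 over all genes by the quasi-likelihood test of edgeR: SNRPC, SF3B6 and PRPF38A were higher and HNRNPU and PRPF4B lower. That is 7.58% of the tested members, and across all 9848 tested genes 791 passed, which is 8.03%, so the members were called about as often as genes in general. By direction 3 of 66 were higher, against 3.39% of all tested genes, and 2 were lower, against 4.64%. The changes were small: the 3 higher genes lay at 1.27 to 1.33 times the control level, and the lower ones at 0.737 and 0.783 of it. For 56 of the 66 members (84.8%) the 95% interval of the fold change lay within 1.5-fold in both directions, where 45.1% of all tested genes did. This share and the share of calls both depend on precision, and the median standard error (SE) was 0.115 for members and 0.190 for all tested genes. Like shares of calls therefore do not mean like changes. The median absolute log2 fold change was closer, at 0.185 for members and 0.218 for all tested genes. Of the 66, 41 had a log2 fold change above 0 and 25 below, where 48.7% of all tested genes were above 0, and the median was 0.088, beside -0.011 over all tested genes. The members together took 18338, 18522 and 18364 CPM in CTI-2 libraries 1 to 3 and 17488, 17331 and 16974 CPM in control libraries 1 to 3, so each CTI-2 sum was above each control sum, at a ratio of means of 1.07. These sums are shares of bulk libraries, in which fewer cells of a kind and less RNA per cell cannot be told apart.

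**Figure D1:**
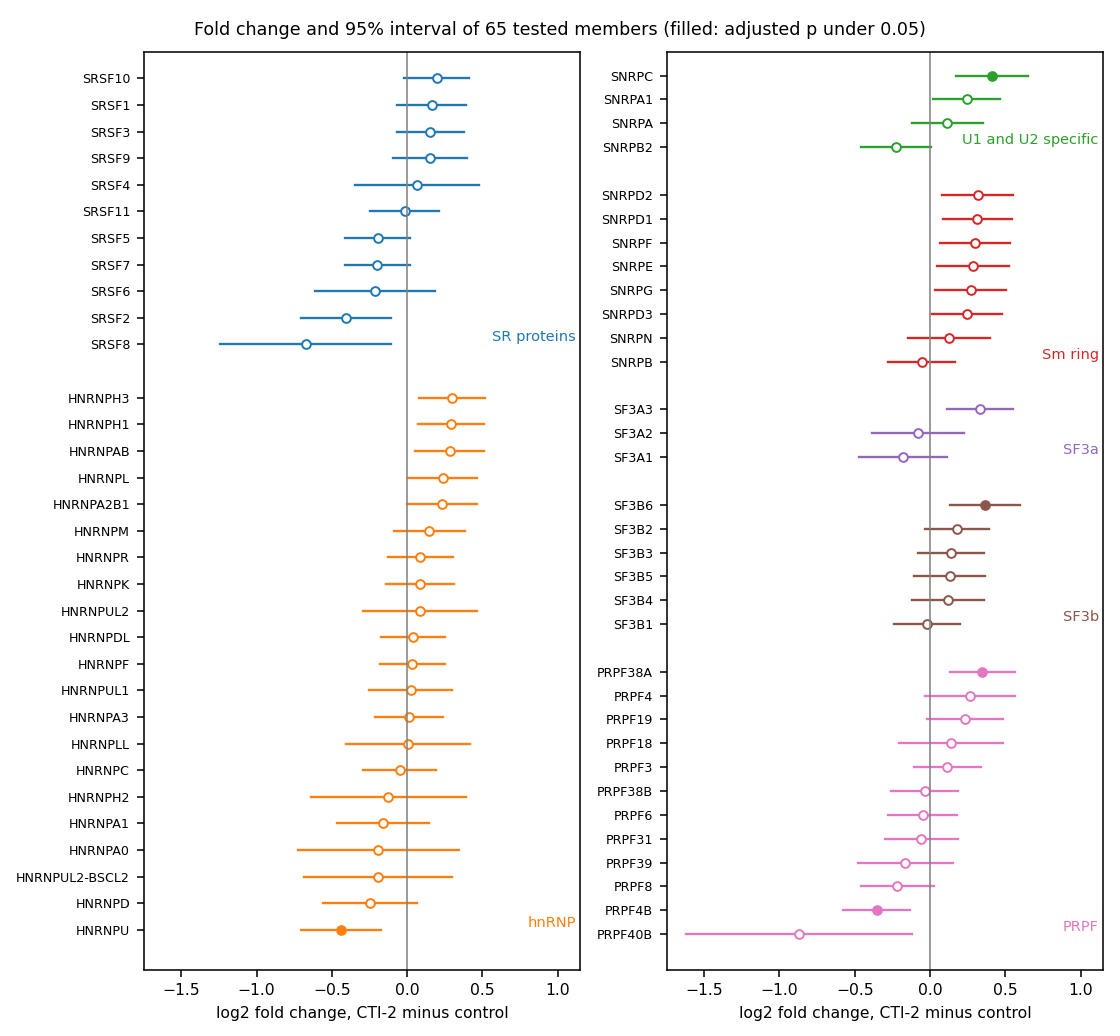
Log2 fold change (x axis, CTI-2 minus control) of 65 tested members by role, with points at the estimate, lines over the 95% interval and filled points for the 5 with an adjusted p under 0.05. SNRPC has the highest value at 0.41 and PRPF40B, which was not called, the lowest at -0.87.

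The calls hung on which libraries were used. Leaving out control 1, control 3 or any CTI-2 library left 0 members higher and at most 1 lower (HNRNPU without CTI-2 library 2, CTI-2 library 3 or control 3, and SRSF8 without control 1). Calls over all genes fell too, to between 3.82% and 5.4% of the tested genes in these fits, against 8.03% with all libraries. Leaving out control 2 raised the count to 16 higher and 3 lower, 28.8% of the tested members, while 16.1% of all genes were then called. Control 2 was the control nearest to the CTI-2 libraries, so leaving it out tends to widen the difference between the groups. Calls made only without control 2 are therefore given as a description and not as separate support. The common biological coefficient of variation, the relative spread between libraries of a group, was 0.100. In DESeq2 4 members were higher (HNRNPH1, PRPF38A, SF3B6 and SNRPC) and 0 lower, 6.15% of the tested members, beside 6.39% of all tested genes.

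**Figure D2:**
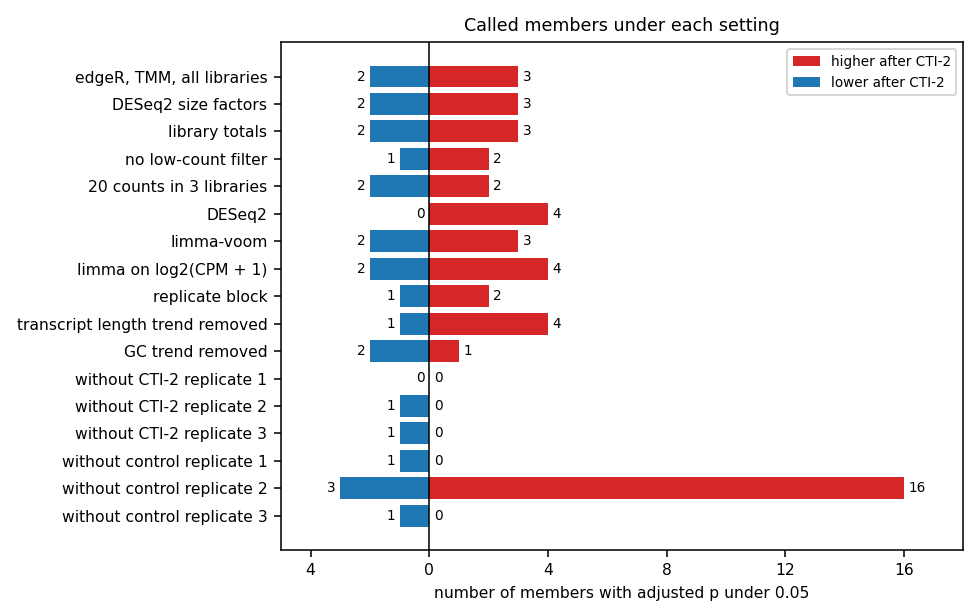
Number of members with an adjusted p under 0.05 (x axis) that were higher (right bars) or lower (left bars) after CTI-2, for the edgeR fit on all libraries and 16 alternatives. There are 16 higher members without control replicate 2 and 3 with all libraries.

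The promoter windows of the called genes are shown so that the members that moved can be compared in the stretch where transcription starts. They are from RefSeq on GRCh38.p14, 250 bases before to 50 after the start of the gene, 5′ to 3′ on the gene's strand. Capitals mark any match, on either strand, to the TATA box TATAAA, the CCAAT box CCAAT, the GC box GGGCGG, the E-box CACGTG or the ETS core CCGGAAG; matches can overlap.
SNRPC (chr6:34757255-34757554, plus strand): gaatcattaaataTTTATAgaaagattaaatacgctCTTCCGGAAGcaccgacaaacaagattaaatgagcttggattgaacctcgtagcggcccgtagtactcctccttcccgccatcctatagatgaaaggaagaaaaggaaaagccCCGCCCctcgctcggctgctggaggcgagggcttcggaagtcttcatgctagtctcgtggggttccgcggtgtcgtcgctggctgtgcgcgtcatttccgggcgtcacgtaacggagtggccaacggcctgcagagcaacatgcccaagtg
SF3B6 (chr2:24076277-24076576, minus strand): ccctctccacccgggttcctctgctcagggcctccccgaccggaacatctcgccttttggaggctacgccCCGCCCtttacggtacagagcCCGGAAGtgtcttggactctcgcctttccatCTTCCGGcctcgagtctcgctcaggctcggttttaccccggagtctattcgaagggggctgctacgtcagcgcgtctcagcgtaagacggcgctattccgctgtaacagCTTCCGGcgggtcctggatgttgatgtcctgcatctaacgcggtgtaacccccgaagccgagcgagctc
PRPF38A (chr1:52404352-52404651, plus strand): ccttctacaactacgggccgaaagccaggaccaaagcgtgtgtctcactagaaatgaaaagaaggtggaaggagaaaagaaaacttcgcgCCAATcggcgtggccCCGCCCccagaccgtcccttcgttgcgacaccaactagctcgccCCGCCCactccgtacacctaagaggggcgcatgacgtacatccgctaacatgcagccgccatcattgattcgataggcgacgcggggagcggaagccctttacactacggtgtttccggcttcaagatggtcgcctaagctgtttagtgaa
HNRNPU (chr1:244864494-244864793, minus strand): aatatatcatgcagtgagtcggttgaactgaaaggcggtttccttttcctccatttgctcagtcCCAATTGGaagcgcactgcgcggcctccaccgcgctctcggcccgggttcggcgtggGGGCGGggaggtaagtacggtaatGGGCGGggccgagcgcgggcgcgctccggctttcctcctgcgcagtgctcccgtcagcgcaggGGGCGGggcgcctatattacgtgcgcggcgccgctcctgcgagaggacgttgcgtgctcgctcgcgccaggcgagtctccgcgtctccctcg
The window of SNRPC held a pair of overlapping ETS cores as a palindrome and a GC box. Its TATA box letters were on the opposite strand at base 14 of the window, far from the start of the gene. SF3B6 held 3 ETS cores and a GC box. PRPF38A and HNRNPU held no ETS core and had CCAAT and GC boxes instead. None of the 4 windows held the E-box letters. PRPF4B had no entry. Over the 59 members with an entry, the ETS core was in 33.9% of windows, beside 22.6% of the 7402 windows of tested genes and 10.3% of all 35116 windows of this length. The CCAAT box was in 45.8% of the members' windows, beside 37.6% of those of tested genes and 34.6% of all. The GC box was in 62.7% of the members' windows, beside 72.3% of those of tested genes and 45.0% of all. The E-box was in 13.6%, beside 10.9% and 7.26%, and the TATA box in 10.2%, beside 4.92% and 11.5%. These matches are a description of letters and not of binding.

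The U1 and U2 particles are the first to touch an intron, and 1 of the 4 genes specific to them was called. SNRPC encodes the U1 protein that steadies the pairing of U1 with the start of the intron (chromosome 6, 34757406 to 34773794, plus strand, GENCODE 29 on GRCh38). It had 159, 159 and 168 CPM in CTI-2 libraries 1 to 3, against 131, 138 and 106 CPM in control libraries 1 to 3. Every CTI-2 library was above every control, and control 3 was the lowest of the 6. The difference was 1.33-fold (log2 fold change 0.41, SE 0.12, adjusted p = 0.024), with a 95% interval of 0.17 to 0.65. SNRPC passed in 10 of 16 alternatives, and its adjusted p ran from 0.00191 to 0.13 over them; with the trend of each library over transcript length taken out it was 0.0703. SNRPA1, which encodes the leucine-rich repeat protein of U2, had 596, 634 and 568 CPM after CTI-2, against 514, 544 and 514 CPM in the controls. The groups of SNRPA1 did not overlap, and it was not called with all libraries (log2 fold change 0.24, SE 0.11, adjusted p = 0.166); without control 2 it was, at 0.33 (adjusted p = 0.00538, where the 16 alternatives spanned 0.00538 to 0.448). SNRPB2, whose product binds U2 RNA beside that of SNRPA1, differed in the other direction, with all CTI-2 libraries below all controls, and was not called (-0.23, adjusted p = 0.22). SNRPA, which encodes a U1 RNA-binding protein, had 94.6 ± 5.88 CPM after CTI-2 and 91.1 ± 10.7 CPM in controls (SD, n = 3 each), a difference within the spread of the controls.

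Genes of the Sm ring, the proteins shared by the U1, U2, U4 and U5 particles, lay mostly on the higher side after CTI-2. With all libraries 0 of the 8 were called. Without control 2, the control nearest to CTI-2, edgeR called 6 (SNRPD1, SNRPD2, SNRPD3, SNRPE, SNRPF and SNRPG), and 16.1% of all genes. Without control 2 these 6 had log2 fold changes of 0.39 to 0.47 and adjusted p from 0.000231 to 0.00266. All 8 were tested, 7 had a log2 fold change above 0, and the median was 0.28, beside -0.011 over all tested genes. In 5 of the 8 (SNRPD1, SNRPD2, SNRPD3, SNRPF and SNRPG) every CTI-2 library was above every control in CPM. Among all members this held for 17 of 66 (25.8%), beside 13.2% of all tested genes. Every CTI-2 library was below every control in 8 members (12.1%), beside 15.6% of all tested genes. CPM lack the library scaling used for the fold changes, so narrow separations need not hold on that scale. For SNRPD3 the margin was small, with control 2 at 342.5 CPM and CTI-2 library 2 at 345.8 CPM. In edgeR 6 of the 8 had an unadjusted p under 0.05, as did 22 of all 66 members and 23.9% of all tested genes. At an adjusted p of 0.05 limma on log2(CPM + 1) called SNRPD2, the fit with the length trend removed called SNRPD1 (adjusted p = 0.0425), and DESeq2, limma-voom and each fit without another single library called 0 of the 8. SNRPD2, the ring gene with the largest difference, had 828, 796 and 823 CPM in CTI-2 libraries 1 to 3, against 636, 758 and 629 CPM in control libraries 1 to 3. Control 2 stood close below the CTI-2 libraries and controls 1 and 3 well below them (1.25-fold, log2 fold change 0.32, SE 0.12, adjusted p = 0.086); without control 2 the log2 fold change was 0.47 (adjusted p = 0.000231, where the 16 alternatives spanned 0.000231 to 0.316). SNRPG, another ring gene, had 1213, 1251 and 1149 CPM after CTI-2, against 979.5, 1122 and 992 CPM in the controls. Here too control 2 was the highest control (log2 fold change 0.27, SE 0.12, adjusted p = 0.144), and without it the log2 fold change was 0.39 (adjusted p = 0.000698, where the 16 alternatives spanned 0.000698 to 0.423).

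SNRPD1, SNRPF, SNRPE and SNRPD3 had log2 fold changes of 0.31, 0.30, 0.29 and 0.25, with adjusted p from 0.0814 to 0.185, and control 2 was the highest control in each. SNRPB, which encodes the ring proteins B and B′, did not share this: it had 531, 522 and 493 CPM after CTI-2, against 566, 570.0 and 523 CPM in the controls, and the groups overlapped (log2 fold change -0.055, SE 0.11, adjusted p = 0.807). SNRPN, a close relative of SNRPB expressed from the imprinted locus that also holds SNURF, had 57.2 ± 6.14 CPM after CTI-2 and 53.9 ± 4.57 CPM in controls (SD, n = 3 each) and shares exon sequence with the SNURF row, so its counts are uncertain. Summed over the 8 ring genes the level was 4826, 4848 and 4706 CPM in CTI-2 libraries 1 to 3 and 4083, 4557 and 3859 CPM in control libraries 1 to 3. The control 2 sum lay nearer to the CTI-2 sums than to that of either other control. Without control 2 the median log2 fold change of the ring genes was 0.41, and with the length trend removed from all libraries it was 0.18.

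**Figure D3:**
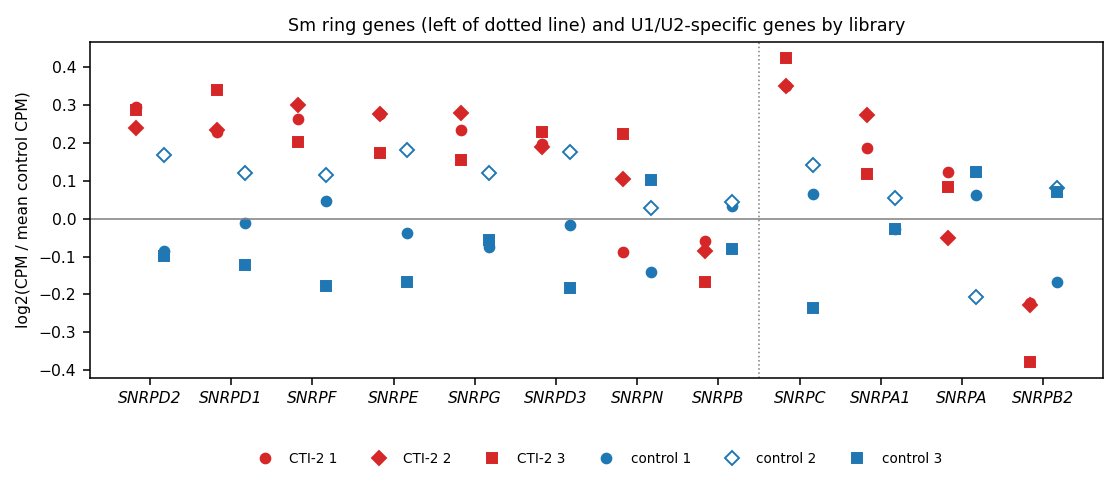
Level of each Sm ring gene (left of the dotted line) and U1 or U2 specific gene in each library, as log2 of CPM over the mean control CPM (y axis; CTI-2 libraries left of controls for each gene, marker shape for the replicate number, open diamond for control 2). In SNRPD2 the CTI-2 libraries lie at 0.24 to 0.30, control 2 at 0.17 and controls 1 and 3 at -0.085 and -0.099.

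The SF3a and SF3b complexes hold the branch point for the U2 particle, and of their 9 genes SF3B6 was called. SF3B6 encodes the small subunit that sits at the branch point adenosine (chromosome 2, 24067584 to 24076443, minus strand, GENCODE 29 on GRCh38). It had 509, 467 and 506 CPM in CTI-2 libraries 1 to 3, against 411, 429.6 and 346 CPM in control libraries 1 to 3. All CTI-2 libraries were above all controls, with control 3 the lowest (1.29-fold, log2 fold change 0.36, SE 0.11, adjusted p = 0.0422). Its adjusted p was 0.000905 to 0.174 over the 16 alternatives, 8 of which called it; it was 0.0818 with the length trend removed. SF3A3, an SF3a subunit gene, was just short of the threshold: it had 226, 241 and 262 CPM after CTI-2, against 208, 199 and 190.2 CPM in the controls, without overlap (log2 fold change 0.33, SE 0.11, adjusted p = 0.0515). SF3A3 was called in 2 of 16 alternatives, without control 2 (0.38, adjusted p = 0.00828) and with the length trend removed (adjusted p = 0.0273), where the 16 alternatives spanned 0.00828 to 0.27.

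SF3B1, the HEAT-repeat scaffold of SF3b and the splicing gene most often mutated in several cancers, had 127, 123 and 127 CPM in CTI-2 libraries 1 to 3, against 135, 118 and 145 CPM in control libraries 1 to 3. The CTI-2 values lay inside the control range, with a log2 fold change of -0.020 whose sign turned in 4 of 16 alternatives and a 95% interval of -0.24 to 0.20. The interval holds differences of less than 1.5-fold in either direction. SF3B2, which contacts RNA near the branch point, had 351, 352 and 351 CPM after CTI-2, against 339, 307 and 318 CPM in the controls. The CTI-2 values were nearly equal to each other and all above the controls, but the gene was not called (log2 fold change 0.18, SE 0.11, adjusted p = 0.302). SF3A1, another SF3a subunit gene, had 40.6, 47.5 and 52.5 CPM after CTI-2, against 63.2, 54.0 and 46.0 CPM in the controls, with overlapping groups (log2 fold change -0.18, SE 0.14, adjusted p = 0.475). SF3A2 had a log2 fold change of -0.082, and SF3B3, SF3B4 and SF3B5 of 0.14, 0.12 and 0.13, all with overlapping groups. SF3A2 shares exon sequence with PLEKHJ1 on the opposite strand, which was counted at 108 CPM on average, so its value is uncertain. Summed, the SF3b genes had 1505, 1492 and 1546 CPM in CTI-2 libraries 1 to 3 and 1402, 1396 and 1287 CPM in control libraries 1 to 3.

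Among the 13 PRPF genes, named for yeast pre-mRNA processing mutants, 1 was higher and 1 lower. PRPF38A encodes a protein of the spliceosome just before activation (chromosome 1, 52404564 to 52420839, plus strand, GENCODE 29 on GRCh38). It had 204, 189.8 and 207 CPM in CTI-2 libraries 1 to 3, against 167, 157 and 165 CPM in control libraries 1 to 3. The groups were apart, with spreads of 9.29 CPM after CTI-2 and 5.29 CPM in controls (1.27-fold, log2 fold change 0.35, SE 0.11, adjusted p = 0.0367). PRPF38A also passed in DESeq2 (adjusted p = 0.0355) and with the length trend removed (adjusted p = 0.0111), and over all 16 alternatives its adjusted p was 0.00903 to 0.175, with 8 below the threshold.

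PRPF4B, a kinase gene whose product phosphorylates proteins of the U4/U6.U5 particle, had 150.0, 151 and 143 CPM in CTI-2 libraries 1 to 3, against 197, 169 and 225 CPM in control libraries 1 to 3 (chromosome 6, 4021267 to 4064983, plus strand, GENCODE 29 on GRCh38). All CTI-2 libraries lay below all controls, and control 2 was the lowest control (0.783 of the control level, log2 fold change -0.35, SE 0.11, adjusted p = 0.0388). It was also called in 8 of 16 alternatives and missed in DESeq2 (adjusted p = 0.089). PRPF8, the large U5 scaffold at the catalytic core, had 157, 139 and 142 CPM in CTI-2 libraries 1 to 3, against 204, 134 and 194 CPM in control libraries 1 to 3. Control 2 lay below the CTI-2 values and the other controls well above them, so the groups overlapped (log2 fold change -0.22, SE 0.12, adjusted p = 0.268). Without control 2 PRPF8 was called, at -0.35 and an adjusted p of 0.0166, where the 16 alternatives spanned 0.0166 to 0.713.

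The other PRPF genes were not called. PRPF40B, with 3 to 26 counts in a library, had the lowest value of the list at -0.87 (95% interval -1.62 to -0.12, adjusted p = 0.136), and its exons overlap those of FMNL3 and FAM186B. The tri-snRNP genes PRPF3, PRPF4, PRPF6 and PRPF31 had 0.12, 0.27, -0.049 and -0.059, and PRPF18, PRPF38B and PRPF39 had 0.14, -0.037 and -0.17. PRPF39 shares exon sequence with FKBP3 (124 CPM on average) and PRPF4 with CDC26 (132 CPM), both on the opposite strand, so these values are uncertain. Of the 68 members, 26 have exons that overlap those of another counted gene. PRPF19, the ubiquitin ligase of the complex that activates the spliceosome, had 0.23, with 82.0 ± 1.83 CPM after CTI-2 and 73.3 ± 13.7 CPM in controls (SD, n = 3 each) and control 2 far below the other 5 libraries.

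**Figure D4:**
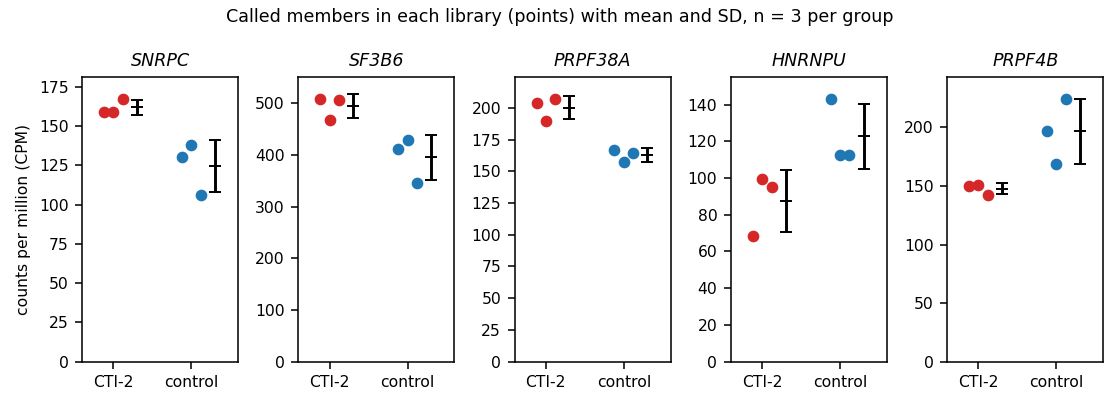
CPM (y axis, from 0) of the 5 called members in each library, CTI-2 left of control, with the mean and SD of each group (n = 3). SNRPC, SF3B6 and PRPF38A are higher in each CTI-2 library than in any control, and HNRNPU and PRPF4B lower.

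None of the 11 SR protein genes was called with all libraries, and their log2 fold changes split evenly, 5 above and 6 below 0, with a median of -0.017. In edgeR SRSF2 and SRSF8 had an unadjusted p under 0.05 (2 genes), and DESeq2 and limma-voom gave 0 at an adjusted p of 0.05. SRSF3, which also serves mRNA export, had 678, 676 and 725 CPM in CTI-2 libraries 1 to 3, against 654, 649 and 629 CPM in control libraries 1 to 3. All CTI-2 libraries were above all controls by a small margin (log2 fold change 0.15, SE 0.11, adjusted p = 0.409), and without control 2 SRSF3 was called (0.21, adjusted p = 0.0491, where the 16 alternatives spanned 0.0491 to 0.726). SRSF7, the closest relative of SRSF3, differed in the other direction with 312, 335 and 338 CPM after CTI-2, against 420.2, 359 and 392 CPM in the controls, again without overlap and without a call (log2 fold change -0.20, SE 0.11, adjusted p = 0.255). SRSF5 had the same pattern as SRSF7 (-0.20, adjusted p = 0.262).

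SRSF1, described as a proto-oncogene in breast tissue, had 169.7, 188 and 191 CPM in CTI-2 libraries 1 to 3, against 189, 137 and 186 CPM in control libraries 1 to 3. Control 2 was well below the other 5 libraries, and the groups overlapped (log2 fold change 0.16, SE 0.11, adjusted p = 0.399, 95% interval -0.067 to 0.39). SRSF6, another SR protein described as oncogenic, had 18.4, 22.9 and 16.8 CPM after CTI-2, against 20.03, 19.6 and 31.9 CPM in the controls, with overlapping groups (log2 fold change -0.21, SE 0.20, adjusted p = 0.543). SRSF2, which binds exon enhancers, had 47.6, 52.9 and 51.2 CPM after CTI-2, against 87.4, 49.1 and 75.3 CPM in the controls. Controls 1 and 3 stood above the other 4 libraries, while control 2 lay within the CTI-2 values, and SRSF2 was not called (log2 fold change -0.41, SE 0.15, adjusted p = 0.0831); without control 2 its log2 fold change was -0.59 with an adjusted p of 0.00459, where the 16 alternatives spanned 0.00459 to 0.448. SRSF8 is a relative of SRSF2 with 11 to 69 counts in a library, and had -0.67 (adjusted p = 0.127); it was called without control 1 (adjusted p = 0.0336, where the 16 alternatives spanned 0.0336 to 0.395). SRSF4, SRSF9, SRSF10 and SRSF11 had 0.066, 0.15, 0.20 and -0.017. SRSF2 shares exon sequence with MFSD11 and SRSF9 with GATC, both on the opposite strand, and SRSF1 with a same-strand gene, AC015813.2, so these counts are uncertain. Summed over the SR genes the level was 2107, 2177 and 2175 CPM in CTI-2 libraries 1 to 3 and 2326, 2027 and 2300.2 CPM in control libraries 1 to 3.

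Of the 23 hnRNP genes 21 were tested and HNRNPU alone was called. HNRNPU, also known as scaffold attachment factor A, binds chromatin-associated RNA (chromosome 1, 244840638 to 244864560, minus strand, GENCODE 29 on GRCh38). It had 68.2, 99.4 and 95.1 CPM in CTI-2 libraries 1 to 3, against 143, 112 and 112 CPM in control libraries 1 to 3. All CTI-2 libraries were below all controls, with CTI-2 library 1 the lowest and control 1 the highest (0.737 of the control level, log2 fold change -0.44, SE 0.13, adjusted p = 0.0322). HNRNPU was called in 11 of 16 alternatives and missed in DESeq2 (adjusted p = 0.122) and with the length trend removed (adjusted p = 0.148), in a range of 0.0131 to 0.255. Its exons overlap those of COX20 on the opposite strand, a gene at 4.93 CPM on average, and without knowing the use of strand the reads of the pair cannot be told apart.

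HNRNPA2B1, which encodes the A2 and B1 proteins, had 1659.8, 1699 and 1722 CPM in CTI-2 libraries 1 to 3, against 1487, 1528 and 1452 CPM in control libraries 1 to 3. The groups did not overlap, and the difference was not called with all libraries (1.18-fold, log2 fold change 0.23, SE 0.11, adjusted p = 0.205). Without control 2 HNRNPA2B1 was called, at 0.31 (adjusted p = 0.00269, where the 16 alternatives spanned 0.00269 to 0.48). HNRNPA2B1 shares exon sequence with CBX3 on the opposite strand, which was counted at 685 CPM on average and differed by 0.27 on the log2 scale (adjusted p = 0.12). HNRNPK, which binds poly(C), had 1296, 1243 and 1221 CPM after CTI-2, against 1270.3, 1173 and 1226 CPM in the controls. Its groups overlapped, and the 95% interval of its log2 fold change was -0.14 to 0.31 (adjusted p = 0.682). HNRNPC, which packages nascent transcripts at uridine tracts, had 576, 525 and 433 CPM after CTI-2, against 521, 597 and 522 CPM in the controls. The CTI-2 libraries of HNRNPC spread wider than the controls, and the sign of its log2 fold change of -0.050 (adjusted p = 0.845) turned without CTI-2 library 3 or control 2.

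HNRNPA1, the founding member of its family, had 34.9, 34.0 and 29.9 CPM in CTI-2 libraries 1 to 3, against 35.8, 35.1 and 44.7 CPM in control libraries 1 to 3. In CPM the CTI-2 libraries were all slightly below the controls (log2 fold change -0.16, SE 0.15, adjusted p = 0.554). The margin was narrow, between 34.9 CPM in CTI-2 library 1 and 35.1 CPM in control 2. It need not hold with the library scaling used for the fold change. HNRNPA1 is usually an abundant transcript, and GENCODE 29 lists 74 genes typed as pseudogenes under its name, of which 0 have a row in the table. The excluded symbol HNRNPA1P48 does have a row and is not among those 74. It had 1 count in CTI-2 library 1 and 0 in the others. The sources used here do not say how reads that match both the gene and its copies were counted, so the level of HNRNPA1 is uncertain. Named pseudogenes without a row were also listed for SNRPG (20), SNRPC (18), HNRNPA3 (16), HNRNPC and SNRPE (9 each) and HNRNPK (5). The near copies HNRNPA1L2 and HNRNPCL3 had at most 2 counts in a library and were not tested; HNRNPCL3 had 1 count in CTI-2 library 3 and 0 in the other 5.

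HNRNPH1 and HNRNPH3, of the family that binds runs of G, lay higher without overlap and were not called (0.29 and 0.30, adjusted p = 0.086 and 0.0843). HNRNPH1 was called in 3 of 16 alternatives, which were DESeq2 (adjusted p = 0.0406), the length trend removed (adjusted p = 0.0404) and control 2 left out (adjusted p = 0.00758), and HNRNPH3 in 1, without control 2 (adjusted p = 0.00305). HNRNPH2, the close X-linked paralog of HNRNPH1, had -0.12 and shares exons with a readthrough row. Of the others, HNRNPL had 0.24 without overlap, HNRNPAB 0.28, HNRNPD -0.25 with all CTI-2 libraries below the controls, and the remaining 10 lay between -0.19 and 0.15. HNRNPUL2-BSCL2 is a readthrough row that shares its exons with HNRNPUL2 and BSCL2. Summed over the 23 rows the hnRNP level was 7057, 7137 and 7105 CPM in CTI-2 libraries 1 to 3 and 6864, 6784 and 6645 CPM in control libraries 1 to 3.

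Fold change varied with transcript length among the members as it did among all genes. Spearman's rho between log2 fold change and annotated transcript length was -0.47 across the 66 members and -0.19 across the 9218 tested genes with a length, a description across genes that share the same 6 libraries. The 22 members with the shortest transcripts (625 to 2085 bases) had a median log2 fold change of 0.18 with 19 above 0, and the 22 with the longest (3307 to 9720 bases) had a median of -0.029 with 9 above 0. The Sm ring genes had a median length of 1272 bases, SNRPC 842 and SF3B6 770 bases, while the lower genes HNRNPU and PRPF4B had 6827 and 4415 bases. PRPF38A went against this, with 5274 bases and a higher level. So did SNRPD1 of the Sm ring, with 4909 bases and a log2 fold change of 0.31, not called with all libraries. With the length trend of each library taken out, 4 members were higher (HNRNPH1, PRPF38A, SF3A3 and SNRPD1) and 1 lower (PRPF4B), so 2 of the 5 calls were shared with the fit without this step, and the median of all members was 0.067 in place of 0.088. SNRPD1 had 0.37 after this step, against 0.31, so its call there depends on its annotated length. SNRPG, with 625 bases, had 0.11, against 0.27. What length contributes to these values was not tested further.

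**Figure D5:**
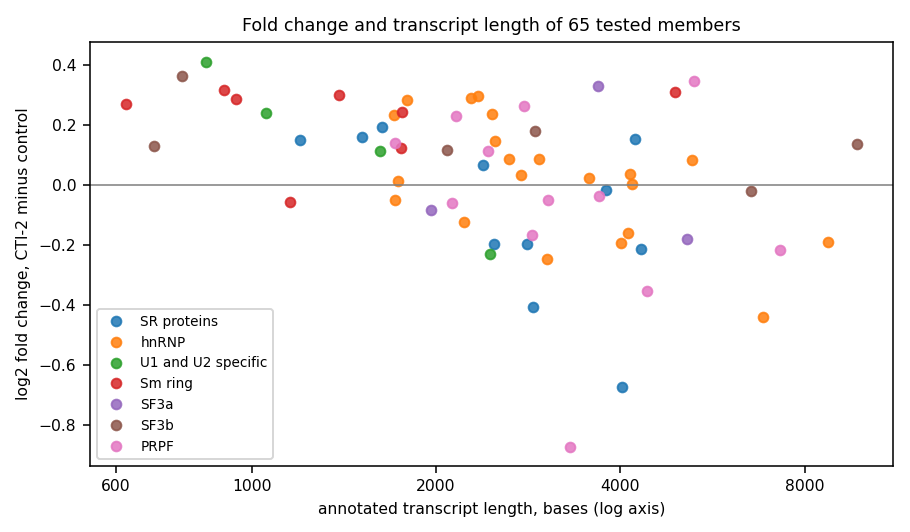
Log2 fold change (y axis, CTI-2 minus control) against annotated transcript length in bases (x axis, log scale) for 65 tested members, coloured by role. Short transcripts such as those of SNRPC and SF3B6 lie mostly above 0, and the lowest value is that of PRPF40B, with 3307 bases.

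Splicing genes outside the symbol rule were taken from a list of spliceosome partners. Of 117 listed spliceosome partners 113 were tested, 11 were higher and 4 lower, 13.3% in all beside 8.03% of all tested genes, and the median log2 fold change was 0.072. By direction, 3.39% of all tested genes were higher and 4.64% lower, so the partners exceeded the share of all genes only among the higher calls. SNRNP70, which encodes the 70K protein of the U1 particle, fell, with 29.2, 37.4 and 29.9 CPM after CTI-2, against 101, 67.7 and 50.6 CPM in the controls (log2 fold change -1.13, SE 0.22, adjusted p = 0.0101). The controls spread widely and all lay above the CTI-2 libraries. U2AF1, the small subunit of the factor that reads the end of the intron, rose, with 425, 427 and 463 CPM after CTI-2, against 334, 348 and 292 CPM in the controls (log2 fold change 0.48, SE 0.11, adjusted p = 0.00664). U2AF1 has a near-identical copy in some assemblies, so its counts are uncertain.

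Of 5 exon junction complex genes 2 were higher. MAGOHB had 241, 231 and 241 CPM after CTI-2, against 155, 179.7 and 157 CPM in the controls, with every CTI-2 library above every control (log2 fold change 0.58, SE 0.11, adjusted p = 0.00111), and its near-identical paralog MAGOH was higher too, at 0.53 on the log2 scale (adjusted p = 0.00404); reads may be split between the pair, so each is uncertain. Of 7 LSM genes, whose proteins ring the U6 RNA, LSM7 was higher (0.45, adjusted p = 0.0104) and all 7 had a log2 fold change above 0. In the tri-snRNP group SNRNP27 (0.45, adjusted p = 0.00829) and ZMAT2 (0.38, adjusted p = 0.0293) were higher and 11 of 13 were not called. In the PRP19 complex and catalytic group 4 of 15 were higher, CTNNBL1 (0.42, adjusted p = 0.0163) and CWC15 (0.39, adjusted p = 0.0201) among them. ZCRB1, of the minor spliceosome, was 1 of 8 called there (0.39, adjusted p = 0.0214).

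The SR kinase gene CLK2 was lower with 16.8, 27.6 and 24.5 CPM after CTI-2, against 51.2, 32.1 and 37.9 CPM in the controls (log2 fold change -0.76, SE 0.18, adjusted p = 0.00825), the only call among 6 SR kinase genes. Among 25 tested genes of other RNA-binding splicing regulators RALY, a relative of HNRNPC, was lower (10.8, 11.1 and 14.0 CPM after CTI-2, against 33.9, 22.1 and 18.3 CPM in the controls; log2 fold change -1.01, SE 0.22, adjusted p = 0.00342), as was CELF1 (-0.43, adjusted p = 0.0239). In these 4 lower partners every CTI-2 library was below every control. None of 11 SR-related genes and none of 10 tested Sm assembly genes passed, with 3 and 5 of them at an unadjusted p under 0.05. Of all tested genes 23.9% had an unadjusted p under 0.05 in edgeR. Leaving out single libraries gave 3 to 22 higher and 2 to 8 lower partners, the most in both directions without control 2.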

How the data were processed

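The authors deposited whole-number counts of reads per gene, and the authors' CPM table equals each count over its library's total to within 4.37e-11. Per the labels' protocols libraries were made from total RNA with the Oxford Nanopore cDNA-PCR kit, and minimap2 is named per the submitters' processing notes; its version, the build, annotation and counter, and whether strand was used are not given in the sources used. Gene length, another deposited column, matched the GENCODE 29 span for 80.6% of 14408 Ensembl genes, and coordinates are printed only for those.

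Members, gene lists and motifs were chosen with earlier results of these data known. Counts were filtered with filterByExpr, scaled by TMM, and the robust quasi-likelihood test of edgeR 4.0.16 in R 4.3.3 was run over all genes, with Benjamini-Hochberg adjustment at 0.05; intervals are 95%. Whether the groups overlapped was read from CPM without the TMM factors. These factors were 0.958 for control 2 and 0.980 to 0.983 for the CTI-2 libraries. Transcript length is that of the annotated principal transcript. Alternatives used DESeq2 1.42.0 and limma 3.58.1. Called members up to 5 per role, the 2 of highest CPM in roles with fewer than 2 calls, and 11 set genes are named; others named were chosen after their values were seen. The values of 1 tested member, included in all counts, are not reported here. The tests were tested on simulated data. Libraries of one group differed by more than sampling noise (chi-square over its degrees of freedom, 1.77 to 6.76).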

Additional observations from a re-analysis of the deposited data

How the results depend on the processing

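Every called member kept its sign in all 16 alternatives. Members called lower numbered 1 with no low-count filter, with the replicate block and with the length trend removed, and 0 in DESeq2, against 2; members called higher numbered 1 with the GC trend removed, against 3. The members' median log2 fold change was 0.039 with library totals and 0.038 with limma on log2(CPM + 1), against 0.088, while the median of all tested genes was -0.059 and -0.061, against -0.011. DESeq2 called 498 genes in all and 234 lower. SF3B1 had a log2 fold change of 0.0027 in DESeq2 and 0.062 with the length trend removed, against -0.020. Leaving out a library gave 400 to 1610 calls over all genes (113 to 957 higher, 287 to 653 lower), 0 to 16 higher and 0 to 3 lower members, a members' median of 0.057 to 0.11, and 3 to 22 higher and 2 to 8 lower partners; log2 fold changes were -0.052 to 0.013 for SF3B1, -0.15 to 0.077 for HNRNPC and -0.12 to 0.021 for SNRPB. The cause of these moves was not tested.

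Same-numbered libraries did not deviate together (r = -0.049, 0.0069 and -0.12 for numbers 1 to 3), so the numbers were not taken as pairs. With the replicate block 942 genes, 2 higher and 1 lower members were called. Depth limits the members of lowest count most, such as PRPF40B with 3 to 26 counts in a library.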
